A study of Rattus norvegicus with 9 samples.

Results

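The respiratory chain and ATP synthase subunit genes were taken as every gene with a probe set whose only platform symbol began with Nduf (but not Ndufaf), Uqcr or Atp5, or with Cox followed by a digit between 4 and 8 and a letter, or was Sdha, Sdhb, Sdhc, Sdhd, Cyc1 or Cycs. The rule gave 80 genes on 85 probe sets, of the 10411 genes on the array that had a probe set of their own. The short probes for a transcript are read together as a probe set, and a gene with several was represented by the one with the highest mean log2 signal over the 9 arrays. Complex I had 36 genes, complex II had 4, complex III had 8, complex IV had 16 and complex V had 16. Cycs, which encodes cytochrome c, had no probe set with that symbol alone and is not described. The tissue was whole kidney of the rat, with total RNA of 1 animal on each array. The labels name 4 animals Case and 5 animals Control, in a series whose title concerns hypotension. They give no strain, age, sex, agent or procedure for either group, so what the Case animals underwent is not stated here and all differences below are between the groups as named.

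The complexes of the inner mitochondrial membrane pass electrons from NADH (complex I) and succinate (complex II) through ubiquinone to complex III, then by cytochrome c to complex IV, which reduces oxygen. Complexes I, III and IV pump protons, and complex V, the ATP synthase, uses the proton gradient to make ATP. Kidney tubules, the proximal tubule and the thick ascending limb above all, are packed with mitochondria that supply the ATP for sodium transport. Most subunits are encoded in the nucleus, and the genes described here are nuclear except where stated otherwise.

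The signals are linear intensities that the authors had scaled between arrays, and were analysed as log2(signal + 5.03). Log2 differences are Case minus Control, so a positive value means a higher level in Case animals, and on this scale the change of dim genes is understated. Pairs of arrays correlated at 0.930 to 0.974 across probe sets. Of 12 proximal tubule markers 11 were above the filter on dim probe sets, a mean signal near 33.3, while none of 3 liver and none of 3 adrenal cortex markers was. Of the tested markers, 7 of 11 for proximal tubule were higher in Case (median difference 0.058), 0 of 4 for thick ascending limb (-0.15), 2 of 2 for distal tubule (0.26) and 1 of 5 for collecting duct (-0.22). The summed distal tubule signal was highest in Case animal 8, at 4711, against 2231 to 4583 in Control animals, and its part in the values below was not tested. The arrays fell into 3 groups by the hybridization times in their headers, and these are called runs here. Run 1 held Case animals 3, 5 and 7 and Control animal 4, run 2 held Case animal 8 and Control animals 9, 10 and 11, and run 3 held Control animal 12. The actin 3′/5′ signal ratio, which is higher where RNA is more degraded or less fully copied, was 3.05 in Case animal 7 and 3.11 in Case animal 8, 1.52 and 1.57 in the other Case animals, and 1.12 to 2.0 in Control animals.

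The subunit genes sat slightly higher in Case kidneys as a group, and no gene of it passed the test. Of the 75 genes above the filter, 60 (80%) had a positive difference and 15 a negative one, while 48.2% of the 7147 genes tested had a positive one. The median difference was 0.078, a signal higher by 5.56% in Case animals, against -0.0077 over all genes tested. Differences ran from -0.29 to 0.38, and 65 of the 75 were smaller than 0.2 in size. In limma with Benjamini-Hochberg adjustment over all 9519 probe sets, 0 subunit genes were past the threshold of 0.05, where 0% of all probe sets were. The smallest adjusted p was 0.644 among the subunit genes and 0.136 over the whole table. An unadjusted p under 0.05 was reached by 4 subunit genes (5.33%), against 6.69% of all probe sets. All 4 were higher in Case, a direction with such a p in 2.88% of all probe sets, and they were Ndufs8, Ndufa2, Cyc1 and Atp5f1e. For 1 gene, Cyc1, every Case animal was above every Control animal, as was so for 0.977% of probe sets, and for none was every Case animal below, against 0.903%. In a bulk tissue sample, fewer cells of a type and less RNA per cell cannot be told apart.

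The precision of the subunit genes bounds what could have been missed. The 95% interval of the difference lay within 1 log2 unit of 0 for all 75, and within 0.5 for 62 of them (82.7%), against 51.8% of all genes tested. Their median standard error was 0.124, against 0.166 over all genes. The 5 genes below the filter were Ndufa4l2, Cox6a2, Cox6b2, Cox7a1 and Cox8b, all but the first of them tissue-restricted isoforms. With no filter, 62 of the 80 genes had a positive difference and the median was 0.076, against 44.5% and -0.027 over all 10411 genes.

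**Figure D1:**
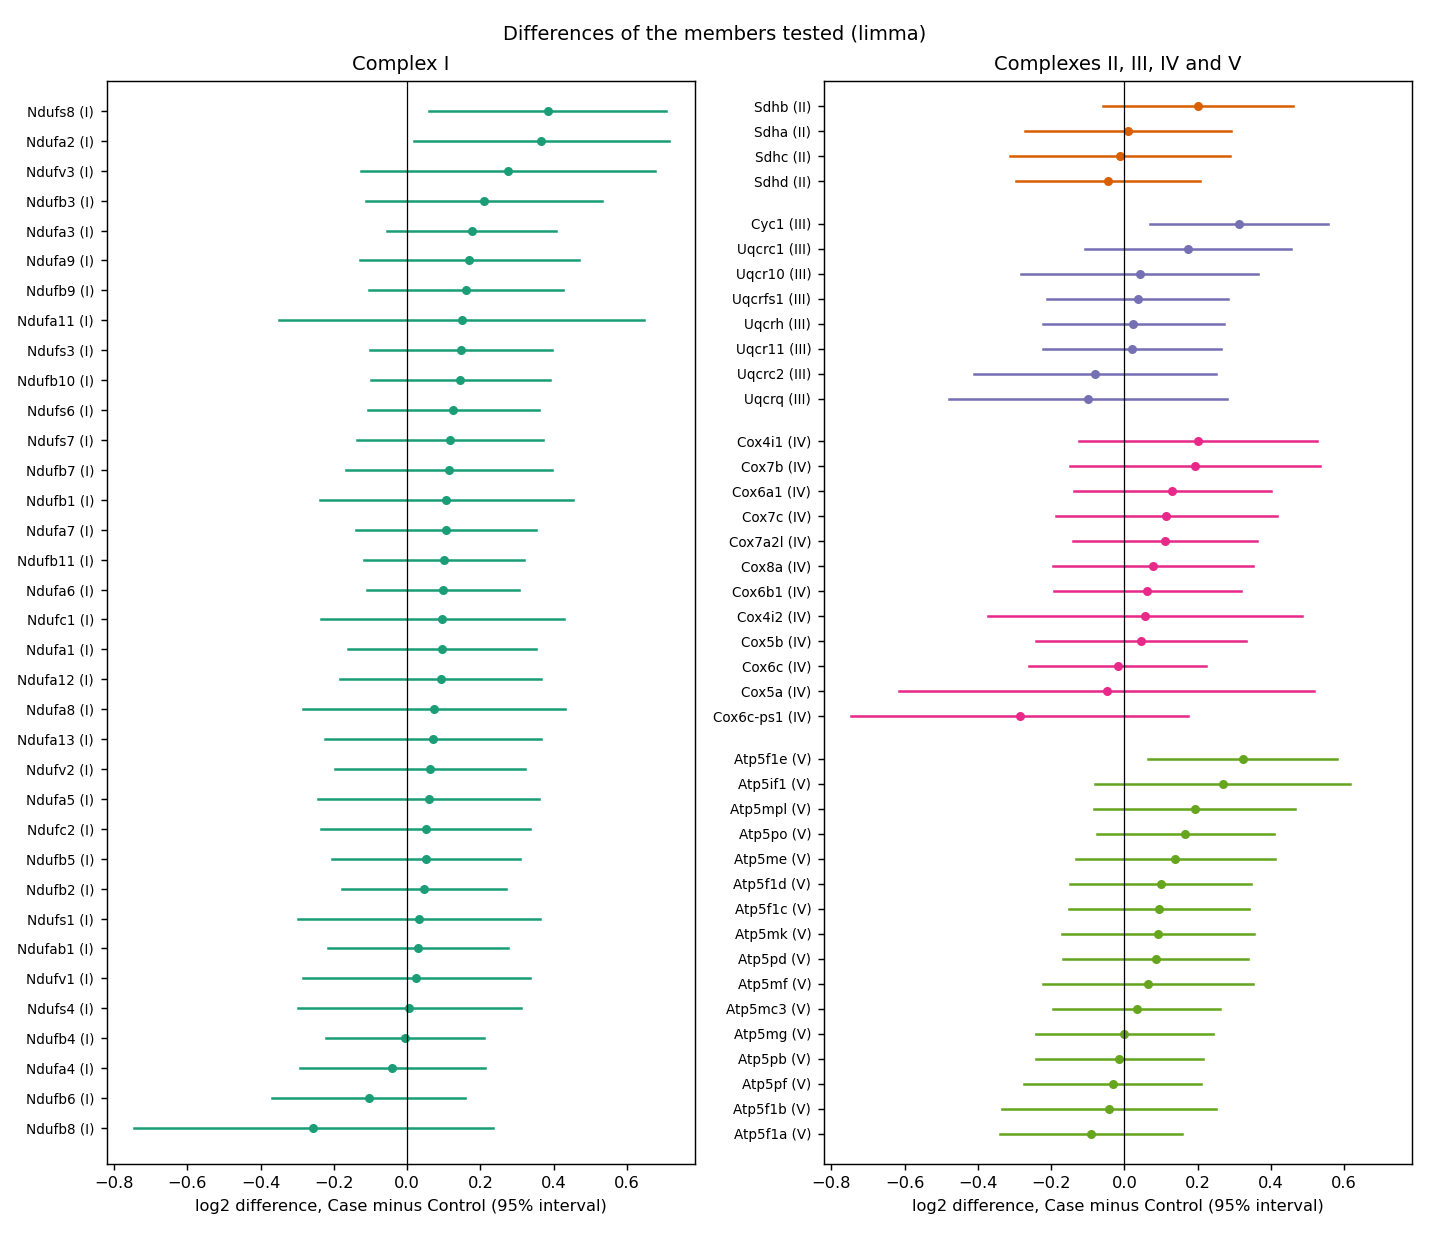
Log2 difference, Case minus Control, of each of the 75 genes above the filter (points), with its 95% limma interval (lines), sorted within each complex. Most points lie to the right of 0, and the intervals of Ndufs8, Ndufa2, Cyc1 and Atp5f1e leave out 0 before adjustment.

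The shift was carried mostly by 1 Case animal. The level of an animal was taken as the median over the 75 genes of its log2 value minus the Control mean of the same gene. That level was 0.041 in Case animal 3, 0.0049 in Case animal 5, 0.030 in Case animal 7 and 0.265 in Case animal 8. In Control animals 4, 9, 10, 11 and 12 it was -0.0080, -0.060, 0.058, -0.024 and 0.064. Case animal 8 stood above all the others, and the other 3 Case animals lay within the Control range. Over all genes tested the level ran from -0.023 to 0.012 in Case animals and from -0.012 to 0.029 in Control animals. It was 0.0076 in Case animal 8, and the genes compared were not matched for brightness. The arrays had been scaled to a common trimmed mean, which in part holds the level over all genes near 0 in every animal. Each Control animal also enters the Control mean that its values are set against, and no Case animal does. The 99th percentile signal was 1685 in Case animal 8, 1503 to 1614 in other Case animals and 1409 to 1611 in Control animals. The part of such brightness in the level of Case animal 8 was not tested. Of the 75 subunit genes, 64 were above the Control mean in Case animal 8, against 44, 39 and 41 in Case animals 3, 5 and 7 and 26 to 54 in Control animals. Case animal 8 had the highest value of the 4 Case animals for 51 of the 75 genes (68.0%), against 21.5% of all genes tested. Without Case animal 8, 46 of 75 genes (61.3%) had a positive difference and the median was 0.029.

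**Figure D2:**
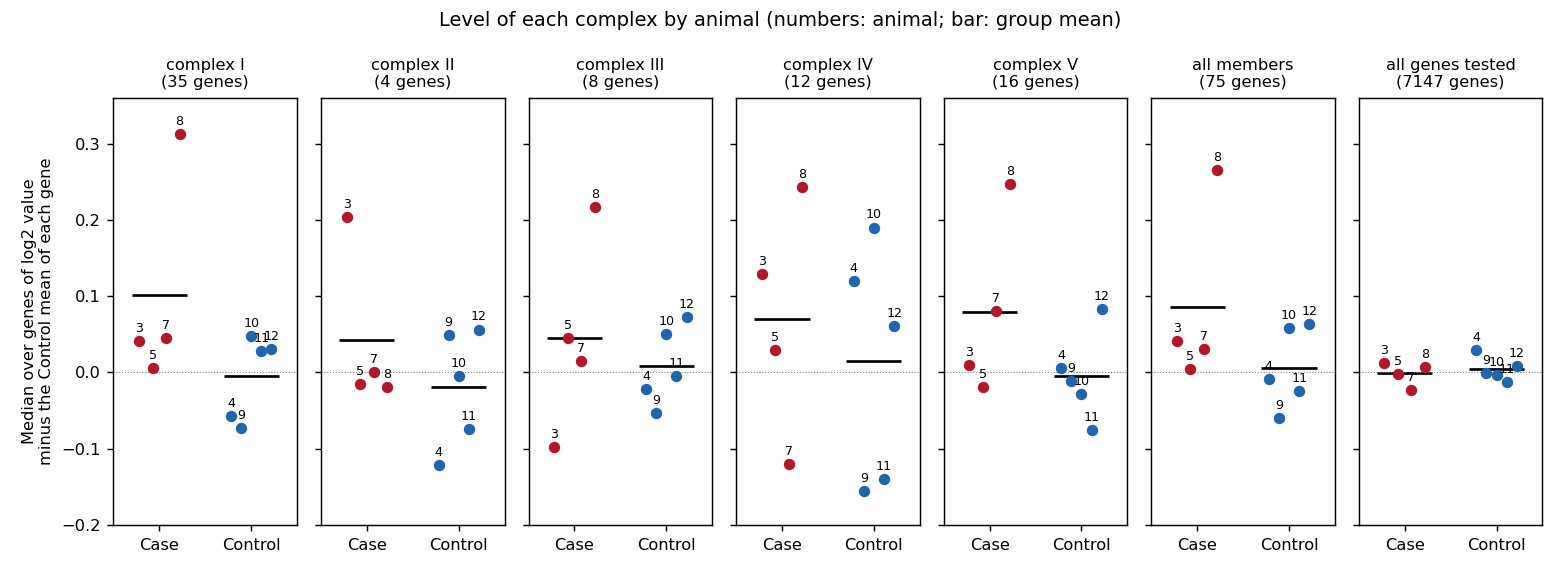
Level of each complex, of all 75 genes and of all 7147 genes tested in each animal, as the median over genes of the log2 value minus the Control mean of the gene (y axis), with Case left of Control, the animal's number at its point and a bar at the group mean. Case animal 8 is highest for complexes I, III, IV and V, and Case animal 3 is highest for complex II. All genes together stay near 0 in every animal, which is in part set by the scaling of the arrays to a common mean.

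Run and RNA quality were set beside this result. Within run 1, Case animals 3, 5 and 7 against Control animal 4, 41 of 75 genes had a positive difference and the median was 0.022, against -0.038 over all genes. Within run 2, Case animal 8 against Control animals 9, 10 and 11, 65 of 75 had one and the median was 0.275, against 0.0086 over all genes. Each within-run value rests on a lone animal of 1 group. With the run as a block the median was 0.152 and 64 of 75 genes had a positive difference. With the actin ratio (log2) as covariate they were 0.069 and 51 of 75. Case animal 7, with an actin ratio of 3.05 beside the 3.11 of Case animal 8, had a level of 0.030. Control animals 9, 10 and 11, of the same run as Case animal 8, had -0.060, 0.058 and -0.024. These are values of single animals, and the part of run or RNA quality in the level of Case animal 8 was not tested. The GAPDH 3′/5′ ratio was 1.55 to 2.39 in Case animals, 1.93 of it in animal 8, and 1.56 to 1.79 in Control animals. After quantile normalization the median was 0.033 with 46 of 75 genes positive, against 0.010 and 52.1% over all genes. The gap between subunit genes and all genes was then 0.022, the smallest under any setting, against 0.086 as reported. The subunit median was 0.167 after centring each array on its median, with 70 of 75 genes positive. Centring moved all genes too, to a median of 0.081 with 67.5% positive. It moves every gene of an array by the same amount, so the gap of 0.086 could not change.

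**Figure D3:**
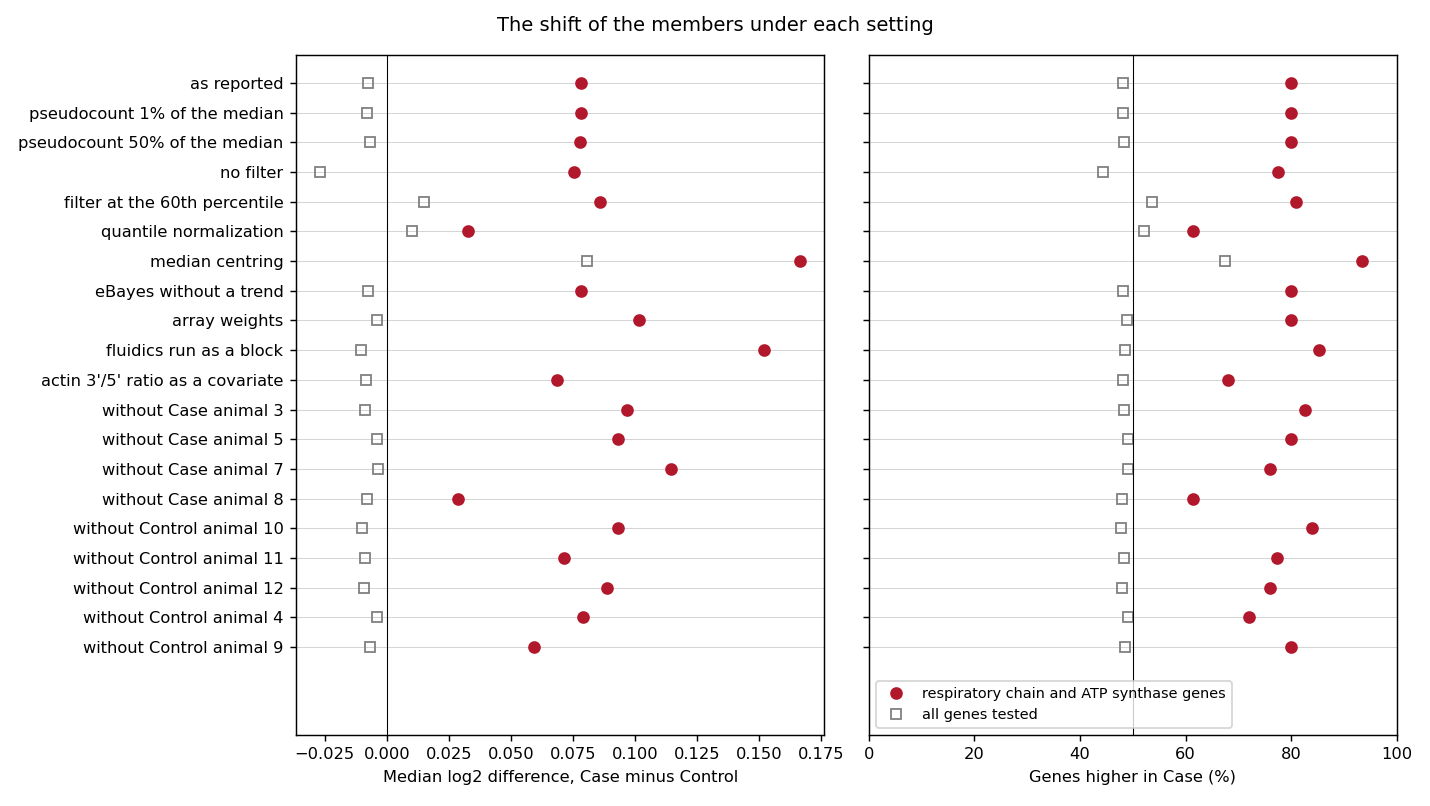
Median log2 difference, Case minus Control (left), and percent of genes higher in Case (right), for the subunit genes (filled circles) and all genes tested (open squares), under each setting. The subunit median stays above 0 in every row, and is lowest, at 0.029, without Case animal 8.

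Complex I, the NADH dehydrogenase, had 31 of its 35 tested genes higher in Case, with a median difference of 0.096. All 9 of its Ndufs and Ndufv genes, which include the core subunits that hold the flavin and iron-sulfur clusters, had a positive difference, with a median of 0.12. Of the Ndufa, Ndufb and Ndufc genes, mostly accessory subunits, 21 of 25 did, with a median of 0.096. This split by symbol was not among the planned results. The lowest of the 9 was Ndufs4 at 0.005, and with the actin covariate Ndufs1 was -0.11 and Ndufs4 -0.13, while the others stayed positive. The level of complex I was 0.041, 0.0055 and 0.045 in Case animals 3, 5 and 7 and 0.312 in Case animal 8, against -0.073 to 0.048 in Control animals. The complex I median was 0.030 without Case animal 8, 0.041 after quantile normalization, 0.176 with the run as a block and 0.184 after median centring. Ndufb8, an accessory subunit of the membrane arm, had the lowest difference of the complex at -0.26 ± 0.23 (SE) and is named after its value was seen. Ndufa4, counted here by its symbol, is now placed in complex IV, and its difference was -0.04 ± 0.12.

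Ndufs8, the core subunit that carries a pair of iron-sulfur clusters on the way to ubiquinone, had the highest difference of all 75 genes. Its signal was 312.8, 350.6, 344.9 and 450.8 in Case animals 3, 5, 7 and 8, against 254.0, 316.8, 280.2, 327.1 and 216.7 in Control animals 4, 9, 10, 11 and 12. Every Case animal was above the Control mean, and Case animal 3 lay under Control animals 9 and 11, so the groups overlapped. The difference was 0.38 ± 0.15 (SE, n = 4 and 5; limma adjusted p = 0.646). It was 0.40 within run 1 and 0.55 within run 2. Ndufa2, an accessory subunit of the peripheral arm, had signals of 283.9, 343.9, 427.4 and 485.1 in the Case animals, against 265.0, 279.7, 274.3, 364.8 and 283.7 in the Control animals. Case animals 7 and 8 were the highest of all, Case animal 3 was level with Control animal 12, and Control animal 11 lay above Case animals 3 and 5. The difference was 0.37 ± 0.16 (limma adjusted p = 0.721). Without Case animal 8 the differences were 0.28 for Ndufs8 and 0.25 for Ndufa2, with the actin covariate they were 0.32 and 0.21, and neither gene kept an unadjusted p under 0.05 in either fit. Ndufa3, an accessory subunit of the membrane side, had signals of 862.9, 892.9, 805.4 and 996.8 in the Case animals, against 836.6, 704.3, 764.2, 799.4 and 823.2 in the Control animals. Case animal 7 was the only Case animal under any Control animal, and the difference was 0.18 ± 0.11 (limma adjusted p = 0.805).

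The promoters of Ndufs8 and Ndufa2 are shown because these genes had the highest differences of the 75 genes above the filter. Both promoters also hold a motif of a factor known to act on respiratory genes. They are RefSeq sequences of the GRCr8 assembly, on the gene's strand, from 110 bases before the annotated start to 50 bases from it onward, with motif letters in capitals. Ndufs8 lies at chr1:210573649-210573808 on the minus strand and holds the reverse complement of the ETS letters CCGGAAG, bound by GABP among others, at position -12. Ndufa2 lies at chr18:28631835-28631994 on the minus strand and holds the YY1 letters AAGATGGCG at position 27. It also holds the reverse complement of the ETS letters at position -146, before the stretch shown.
Ndufs8: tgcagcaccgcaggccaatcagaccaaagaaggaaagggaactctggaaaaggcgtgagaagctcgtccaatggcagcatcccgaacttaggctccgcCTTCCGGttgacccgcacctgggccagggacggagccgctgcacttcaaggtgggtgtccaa
Ndufa2: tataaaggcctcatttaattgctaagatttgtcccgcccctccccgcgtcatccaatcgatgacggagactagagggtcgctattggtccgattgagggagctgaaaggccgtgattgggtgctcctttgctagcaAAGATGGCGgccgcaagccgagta

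**Figure D4:**
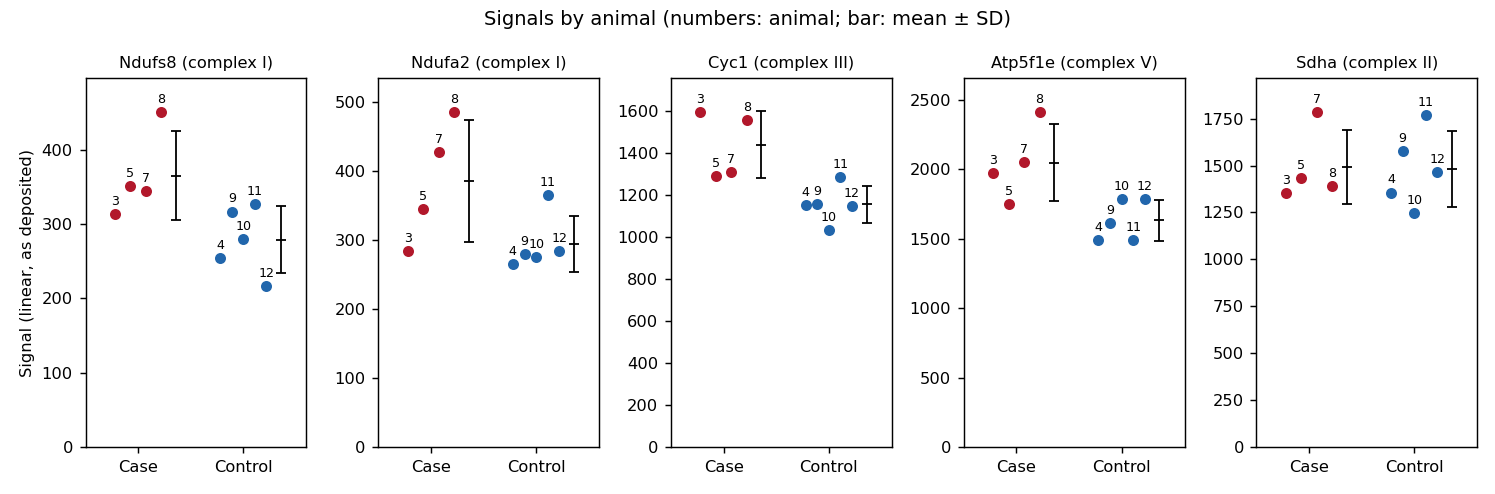
Signal (linear, as deposited) by animal of Ndufs8, Ndufa2, Cyc1 and Atp5f1e, the genes with an unadjusted p under 0.05, and of Sdha, with Case left of Control, the animal's number at its point and bars for the mean ± SD (n = 4 Case, 5 Control). The groups separate for Cyc1, overlap for the others, and Sdha shows no difference beyond the spread.

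Complex II, the succinate dehydrogenase, is the only complex with all its subunits encoded in the nucleus, and all 4 of its genes were measured. Their median difference was -0.00095, with 2 of 4 positive. It was -0.068 after quantile normalization, 0.018 with the actin covariate, 0.032 with the run as a block, 0.038 without Case animal 8 and 0.088 after median centring. Sdha, the flavoprotein that oxidises succinate, had signals of 1355.8, 1434.9, 1786.0 and 1389.4 in the Case animals, against 1356.3, 1577.1, 1245.1, 1768.3 and 1463.2 in the Control animals. The groups covered the same range, and the difference of 0.01 ± 0.13 had a 95% interval from -0.27 to 0.29. Sdhb, the iron-sulfur subunit, had signals of 1531.9, 1307.2, 1371.2 and 1696.0 in the Case animals, against 1117.1, 1277.7, 1297.1, 1228.7 and 1500.9 in the Control animals. Each Case animal was above 4 of the 5 Control animals, and Control animal 12 overlapped with Case animals 5 and 7. The difference was 0.20 ± 0.12 (limma adjusted p = 0.804). Sdhc and Sdhd encode the membrane anchors, and their differences were -0.01 ± 0.14 and -0.04 ± 0.12. Sdhc had signals of 1303.3 to 1795.0 in Case animals and 1233.0 to 1810.2 in Control animals, and Sdhd had 1231.3 to 1644.3 in Case animals and 1359.7 to 1623.4 in Control animals. The level of complex II was -0.019 in Case animal 8 and 0.204 in Case animal 3, and -0.121 to 0.056 in Control animals. The signs of Sdha, Sdhc and Sdhd turned under some settings, so no direction is given for them.

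Complex III, which oxidises ubiquinol and reduces cytochrome c, had 6 of 8 genes higher in Case and a median difference of 0.030, which turned to -0.032 without Case animal 8, -0.027 after quantile normalization and -0.019 with the actin covariate. It was 0.103 with the run as a block and 0.119 after median centring. Cyc1, the cytochrome c1 subunit that hands electrons to cytochrome c, was the one gene whose groups did not overlap. Its signal was 1593.7, 1290.9, 1308.2 and 1556.1 in Case animals 3, 5, 7 and 8, against 1151.0, 1156.0, 1031.6, 1284.0 and 1146.3 in Control animals 4, 9, 10, 11 and 12. The gap was narrow, between 1290.9 in Case animal 5 and 1284.0 in Control animal 11. The mean was 1437 ± 160 in Case animals and 1154 ± 89.4 in Control animals (SD, n = 4 and 5), a difference of 0.31 ± 0.11 (SE) or 1.24-fold (limma adjusted p = 0.644). It was 0.27 within run 1 and 0.43 within run 2, and its unadjusted p stayed under 0.05 without Case animal 8 and with the actin covariate. Uqcrc1, a core protein of the matrix side, had signals of 1408.1, 1215.8, 1082.0 and 1422.0 in the Case animals, against 1346.6, 950.1, 1157.7, 1047.9 and 1178.6 in the Control animals. Case animals 3 and 8 were above every Control animal, Case animal 7 was among the lower Control animals, and the difference was 0.17 ± 0.13 (limma adjusted p = 0.861). Uqcrq, a small subunit of the membrane part, had signals of 760.9, 1007.1, 1009.0 and 1057.1 in the Case animals, against 1047.5, 831.5, 1356.6, 757.7 and 1227.8 in the Control animals. Control animals spanned a wider range than Case animals, and the difference was -0.10 ± 0.18.

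The promoter of Uqcrc1 is shown because the stretch shown holds motifs of 2 kinds, the NRF1 letters TGCGCATGC at position -40 and the YY1 letters AAGATGGCG at position -1. It lies at chr8:118468113-118468272 of GRCr8, on the plus strand, with both motifs in capitals. The promoter table used here did not match Cyc1.
Uqcrc1: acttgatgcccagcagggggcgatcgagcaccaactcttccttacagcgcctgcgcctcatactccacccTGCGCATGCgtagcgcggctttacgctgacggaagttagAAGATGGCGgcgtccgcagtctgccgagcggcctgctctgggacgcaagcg

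Complex IV, cytochrome c oxidase, had 9 of 12 tested genes higher in Case, with a median difference of 0.070, or 0.052 after quantile normalization. It was 0.029 without Case animal 8, 0.120 with the actin covariate, 0.125 with the run as a block and 0.159 after median centring. The SD of its level was 0.154 over Case animals and 0.156 over Control animals, the widest of the 5 complexes in each group. The level was 0.129, 0.029, -0.121 and 0.243 in Case animals 3, 5, 7 and 8, against 0.120, -0.156, 0.190, -0.140 and 0.061 in Control animals 4, 9, 10, 11 and 12. The lowest levels were those of Case animal 7 and Control animals 9 and 11. The arrays of these 3 animals also had the lowest maximum signals, 5374 in Case animal 7 and 6575 and 5853 in Control animals 9 and 11, and the part of this in the complex IV level was not tested. Within run 1 the complex IV median was -0.095 and within run 2 it was 0.261.

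Cox4i1, the common isoform of the subunit at which ATP regulates the enzyme, had signals of 2543.1, 2312.9, 1954.8 and 2791.9 in the Case animals, against 2489.1, 1578.4, 2381.0, 1970.5 and 2061.2 in the Control animals. Case animals 3 and 8 were highest, Case animal 7 was below 4 Control animals, and the difference was 0.20 ± 0.15 (limma adjusted p = 0.861). Cox4i2, the isoform known from lung and from low oxygen, had signals of 34.9 to 59.5 in Case animals and 34.6 to 58.8 in Control animals, close to the filter, with a difference of 0.06 ± 0.20. Cox6a1, the isoform of most tissues, had signals of 1532.6, 1564.3, 1579.5 and 2170.2 in the Case animals, against 1404.6, 1588.2, 1662.6, 1478.4 and 1614.4 in the Control animals. Case animal 8 stood alone, the other Case animals lay within the Control range, and the difference was 0.13 ± 0.12. Cox7b, a small nuclear subunit, had signals of 1419.7 to 2109.2 in Case animals and 1214.9 to 1901.2 in Control animals, with a difference of 0.19 ± 0.16. Cox8a, the isoform of most tissues, had signals of 3342.3 to 4266.7 in Case animals and 3129.4 to 4379.6 in Control animals, with a difference of 0.08 ± 0.13. Cox6c-ps1, which RefSeq names a pseudogene of Cox6c and whose probes may also read Cox6c RNA, had the lowest difference of all 75 genes at -0.29 ± 0.21. Its signal was 27.7 to 53.4 in Case animals and 37.8 to 65.5 in Control animals, and without it 60 of 74 genes had a positive difference.

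The isoforms known from heart and skeletal muscle were dim in these kidneys. Cox6a2 had signals of 5.1 to 14.7 in Case animals and 6.5 to 18.4 in Control animals, and Cox8b had 1.8 to 4.2 in Case animals and 1.9 to 4.0 in Control animals. Cox7a1, the muscle isoform of subunit 7a, had signals of 45.4, 37.0, 25.4 and 12.3 in Case animals 3, 5, 7 and 8, against 8.3, 21.2, 25.4, 13.6 and 7.2 in Control animals 4, 9, 10, 11 and 12. Case animals 3 and 5 were above every Control animal and Case animal 8 was below 3 of them. Its mean over the 9 animals was below the filter, so it was not among the genes tested, and in the fit without a filter its difference was 0.78 with a 95% interval from -0.01 to 1.58. Of 8 skeletal muscle markers 2 were above the filter, Myh1 with signals of 1953 to 2703 in Case animals and 1841 to 2278 in Control animals, and Ckm with 37.7 to 67.6 in Case animals and 28.3 to 103.7 in Control animals. Myoglobin (Mb), a defining muscle gene, had 2.8 to 3.8 in Case animals and 1.5 to 8.3 in Control animals. Of 4 fat markers 1, Cidea, was above the filter. The 4 together summed to 94.0, 399.3, 66.5 and 79.4 in Case animals 3, 5, 7 and 8 and 75.7 to 131.8 in Control animals. Case animal 5 stood apart in this sum, with Ucp1 at 154.7, against 9.1 to 19.8 in Control animals. Cidea was 122.1 in this animal, against 26.3 to 41.6, and Fabp4 was 105.3, against 3.4 to 69.7. Plin1 did not stand apart, at 17.2 against 16.5 to 32.6. Whether either tissue had a part in the Cox7a1 values was not tested.

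Complex V, the ATP synthase, had 12 of 16 genes higher in Case, with a median difference of 0.089, or 0.030 after quantile normalization. It was 0.0089 without Case animal 8, 0.117 with the run as a block and 0.019 with the actin covariate. Its level was 0.0091, -0.020 and 0.080 in Case animals 3, 5 and 7 and 0.247 in Case animal 8, against -0.076 to 0.084 in Control animals. Of the 5 Atp5f1 genes, which encode the F1 head and its stalk, 3 had a positive difference. Atp5f1b, the beta subunit that holds the catalytic sites, and Atp5f1a, the alpha subunit that alternates with it, had differences of -0.04 ± 0.13 and -0.09 ± 0.12, both named after their values were seen. Atp5f1e, the epsilon subunit of the central stalk, had signals of 1975.1, 1752.0, 2054.3 and 2413.1 in Case animals 3, 5, 7 and 8, against 1487.7, 1612.0, 1785.6, 1489.8 and 1784.2 in Control animals 4, 9, 10, 11 and 12. Case animals 3, 7 and 8 were above every Control animal, and Case animal 5 lay just under Control animals 10 and 12. The difference was 0.32 ± 0.12 (limma adjusted p = 0.644). It was 0.37 within run 1, 0.57 within run 2, 0.24 without Case animal 8 and 0.27 with the actin covariate, and its unadjusted p was not under 0.05 in those last 2 fits.

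Atp5if1, the inhibitor that stops the synthase from running backward when the gradient falls, had signals of 269.1, 347.3, 461.9 and 404.6 in the Case animals, against 243.5, 308.6, 288.9, 328.3 and 347.4 in the Control animals. Case animals 7 and 8 were above every Control animal, Case animal 3 was among the lower ones, and the difference was 0.27 ± 0.16 (limma adjusted p = 0.804). Its other probe sets, both below the filter, had differences of -0.10 ± 0.31 and 0.65 ± 0.34, so they did not agree in sign. Atp5mc3, which encodes the subunit c of the proton-carrying ring, had signals of 2641.9 to 3176.0 in Case animals and 2573.4 to 3111.3 in Control animals, with a difference of 0.03 ± 0.11. Atp5mpl, a small protein of the membrane part, had signals of 648.3, 627.7, 789.4 and 826.1 in the Case animals, against 654.8, 639.3, 517.0, 669.6 and 672.3 in the Control animals. Case animals 7 and 8 were above every Control animal, the other Case animals lay within the Control range, and the difference was 0.19 ± 0.13 (limma adjusted p = 0.833). The dimmer probe sets of Atp5me, Ndufv3 and Sdhd had differences of -0.21, -0.06 and -0.08, against 0.14, 0.28 and -0.04 at the brightest.

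The promoter of Atp5f1e is shown beside those above because the gene is among the 4 with an unadjusted p under 0.05 and none of the motifs searched is in it. It lies at chr3:183680123-183680282 of GRCr8, on the minus strand, and has no capitals.
Atp5f1e: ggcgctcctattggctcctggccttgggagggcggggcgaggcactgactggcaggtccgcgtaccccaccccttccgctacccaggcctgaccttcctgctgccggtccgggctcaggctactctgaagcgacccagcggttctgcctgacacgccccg

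Promoters of 300 bases, from 250 before the start, were found for 71 of the 80 genes. They were searched on both strands for the letters given above and for TCAAGGTCA, bound by estrogen-related receptors, and 29 held at least 1 of the 4 motifs. The YY1 letters AAGATGGCG were in 10 of 71 promoters (14.1%), against 1.73% of all 33469 promoters in the table and 2.07% of those of protein-coding genes. In 9 of them the motif was on the sense strand with its first base between 10 bases before and 40 bases after the start, which was so for 1.21% of the promoters of protein-coding genes. The letters include ATG, and YY1 is known to bind such sites at the start of genes. Complex I genes held 7 of the 10, complex V genes 2 and complex III genes 1. The ETS letters CCGGAAG were in 20 promoters (28.2%, against 8.75% of all and 10.7% of protein-coding). The NRF1 letters TGCGCATGC were in 4 (5.63%, against 1.39% and 1.74%) and TCAAGGTCA in 2 (2.82%, against 0.433% and 0.366%). The median difference was 0.11 over the 10 tested genes with the YY1 letters and 0.074 over the 56 without. For the ETS letters it was 0.074 over 20 genes with them and 0.093 over 46 without. A match of letters is a description of the sequence and no measure of binding.

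The subunit genes varied together between animals of the same group. After each group's mean was taken off, the correlation of a gene with the mean of the other subunit genes over the 9 animals had a median of 0.458 and was above 0 for 62 of 75 genes, against 0.024 and 52.2% for all other genes tested. The median was 0.476 in complex I, 0.118 in complex II, 0.414 in complex III, 0.623 in complex IV and 0.374 in complex V. The other genes tested were not matched to the subunit genes for brightness, and the part of brightness in these correlations was not tested. The values of all genes in an animal share 1 array and its scaling, and Case animal 8 weighed on them. Without it the median was 0.244, with 49 of 75 above 0, and in complex IV it was 0.593. The genes most like the mean of the others were Atp5pd, a subunit of the peripheral stalk (0.903), and Uqcrh, the hinge protein of complex III (0.893), and the least like was Sdha (-0.526).

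Genes that build and serve these complexes gave 0 past the threshold in limma as well. Of 36 assembly factor genes tested, 22 (61.1%, against 48.2% of all genes tested) had a positive difference, with a median of 0.020. At an unadjusted limma p under 0.05 there were 0, against 6.69% of all probe sets. Lrpprc, which stabilises mitochondrial messenger RNA, had a difference of 0.25 ± 0.14, and Bcs1l, which inserts the Rieske protein into complex III, had -0.31 ± 0.18. Of 69 mitochondrial ribosomal protein genes, 46 (66.7%) had a positive difference, with a median of 0.037. Of 32 genes of import and inner membrane upkeep 22 (68.8%) did, with a median of 0.061. Such a p was reached by 2 of the ribosomal genes, 1 of them higher in Case, and by 1 gene of import and upkeep. Mrps18b, a protein of the small mitochondrial ribosomal subunit, had signals of 200.9, 188.1, 170.6 and 239.7 in the Case animals, against 156.5, 169.3, 155.5, 135.4 and 152.9 in the Control animals. Every Case animal was above every Control animal by a narrow gap, as was so for 0.977% of all probe sets. The difference was 0.36 ± 0.13 (limma adjusted p = 0.644). Mrps11, of the same subunit, had a difference of -0.64 ± 0.24 (limma adjusted p = 0.644). Timm8a1, an import chaperone, had a difference of 0.36 ± 0.16.

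Of 16 regulators of respiratory genes, 8 had a probe set of their own and 5 were above the filter. Of these 5, 4 (80%, against 48.2% of all genes tested) had a positive difference, with a median of 0.027. An unadjusted limma p under 0.05 was reached by 0 of them, against 6.69% of all probe sets. Tfam, which packages mitochondrial DNA and activates its transcription, had a difference of 0.04 ± 0.16, and Esrra, an estrogen-related receptor, had -0.02 ± 0.27. Sirt3, a mitochondrial deacetylase, had 0.17 ± 0.15. Ppargc1a, the coactivator known to drive mitochondrial biogenesis, was below the filter, with signals of 0.6 to 10.1 in Case animals and 4.7 to 15.5 in Control animals. Among carriers, 6 of 10 genes tested (60%) had a positive difference, with a median of 0.0086. Slc25a4, an ADP/ATP carrier, had 0.20 ± 0.14 and Ucp3, an uncoupling protein, had -0.25 ± 0.21. COX1 and COX2, catalytic subunits of complex IV encoded in mitochondrial DNA and added after their values were seen, had differences of -0.03 ± 0.15 and -0.03 ± 0.17.

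Of 9 tested genes that feed electrons into the chain by other routes than complexes I and II, 6 (66.7%, against 48.2% of all genes tested) had a positive difference, and 2 had an unadjusted p under 0.05, which 6.69% of all probe sets had. Prodh, proline dehydrogenase, had signals of 432.2, 153.7, 391.2 and 450.2 in Case animals 3, 5, 7 and 8, against 135.1, 137.8, 243.7, 71.3 and 99.3 in Control animals 4, 9, 10, 11 and 12. Case animals 3, 7 and 8 were above every Control animal, and Case animal 5 was below Control animal 10. The difference was 1.34 ± 0.35 (limma adjusted p = 0.530). Etfb, the beta subunit of the flavoprotein that takes electrons from fatty acid oxidation, had signals of 618.3, 546.2, 623.4 and 740.6 in the Case animals, against 452.3, 473.9, 484.0, 500.9 and 556.5 in the Control animals. Case animal 5 was the only Case animal under any Control animal, and the difference was 0.35 ± 0.12 (limma adjusted p = 0.644).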

How the data were processed

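RNA from the kidneys of 9 rats was measured on arrays of the Affymetrix RAE230A type, named per the file headers, 1 per animal. The deposited value table holds a linear intensity per probe set and array. The authors had scaled the deposited intensities, since every array had a mean of 100.02 or 100.03 once 2% was trimmed from both ends. Which software summarised the probes is not given in the sources used here, and no detection calls were used. The 3 fluidics runs were inferred from the Hybridize Date entry in the deposited header of each array, which holds no expression value. A new run was counted wherever consecutive times were at least 10 minutes apart. All arrays shared 1 chip type, lot and station.

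Of 15923 probe sets, 57 controls were left out. Of the other 15866, 12783 had 1 symbol in the platform annotation, 312 several and 2771 none, and 12748 matched a RefSeq table of GRCr8 by gene identifier. All 80 subunit genes matched with the same symbol, and 9 probe sets that also carry another symbol were left out, among them those of Cycs, Atp5mc1 and Atp5mc2. Values were log2(signal + 5.03), the pseudocount being 10% of the median signal of 50.3. Probe sets with a mean above the 40th percentile were tested, which left 9519, of 7147 genes with a single symbol. The test was limma 3.58.1 under R 4.3.3 (lmFit and eBayes with a trend on intensity, 2-sided), and p-values were adjusted over all 9519 by Benjamini-Hochberg. Counts and medians over the subunit genes are descriptions with no test. The p-values measure the spread between these animals, which are separate samples with no pairing. The number of animals limits the precision.

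The subunit genes and the further lists were chosen with earlier results of these data known. Values were given for genes with an unadjusted p under 0.05, genes whose groups do not overlap, the 3 with the smallest p in each complex, all Sdh genes, Cyc1 and the isoform groups, and the 2 with the smallest p in each further list with 4 regulators. Others are named as such. Alternatives were the run as a block, the actin ratio as covariate, quantile normalization, centring on the median, no filter or one at the 60th percentile, a pseudocount of 1% or 50% of the median, array weights, no trend in eBayes, every probe set of a gene, and leaving out each animal. Protein sequences of the isoforms were not used here. Tables and figures were made with Python 3.11.15, NumPy 2.4.6, pandas 2.3.3 and matplotlib 3.10.9.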

Additional observations from a re-analysis of the deposited data

Results flagged for a closer look

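Single animals were set against the others of their group for the named genes above the filter, the complexes and all subunit genes, in 58 groups, and 7 held an animal whose gap to the nearest other was over Dixon's 95% critical value (0.829 for 4 animals, 0.710 for 5). Chance alone gives this in about 1 in 20 groups. Case animal 8 stood high for the level of all 75 subunit genes (0.265), for complex I (0.312) and for Cox6a1 (signal 2170.2). Case animal 3 stood high for complex II (0.204) and low for Uqcrq (signal 760.9). Control animal 11 stood high for Ndufa2 (signal 364.8), and Control animal 10 stood low for Atp5mpl (signal 517.0). The 3 values of Case animal 8 are not independent of each other, since complex I makes up 35 of the 75 genes.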

How the results depend on the processing

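Of 197 values of counts and medians under the alternatives, 190 stayed within 1.5 times of a count or within the spread between animals of a median. That spread was the larger SD of the 2 groups, 0.121 for all subunit genes and 0.130 for complex III. It was wider than the medians themselves, 0.078 and 0.030, so a median that changed sign could count as having stayed. The count of 190 is therefore no measure of how stable the medians were. The complex II median, which lies near 0, changed sign in 9 of 20 alternatives and the complex III median in 3 of 20, while those of complexes I, IV and V and of all subunit genes kept theirs. Of 378 values of named genes 355 kept their sign. The subunit genes past the threshold were 0 under every alternative. Over all probe sets, 1 passed with no filter, 1 after median centring, and 0 to 52 when 1 animal was left out, the 52 being without Case animal 5. The subunit genes with an unadjusted p under 0.05 numbered 8 with the run as a block, 1 with the actin covariate, and 1 to 5 when 1 animal was left out, 1 being without Case animal 8 and 2 without Control animal 12. Leaving out 1 animal gave a median over the subunit genes between 0.029 and 0.114. Small differences changed sign. Sdha was -0.070 after quantile normalization, -0.036 with array weights, -0.085 with the actin covariate, and -0.079 to 0.077 with 1 animal left out. Sdhc was 0.076 after median centring, 0.025 with array weights, 0.11 with the actin covariate, and -0.11 to 0.060 with 1 animal left out. Sdhd was 0.045 after median centring, 0.047 with the run block, and -0.11 to 0.031 with 1 animal left out. Uqcrq was -0.21 to 0.0069 and Cox4i2 -0.084 to 0.17 with 1 animal left out, and Cox4i2 was -0.14 with the run block. Atp5mc3 was -0.0044 after quantile normalization and -0.017 to 0.073 with 1 animal left out. The cause of these moves was not tested. No paired analysis was possible because the labels give animals and no pairs. The depth of an array is its signal over background, for which no detection calls were used here, and 5 subunit genes below the filter have only dim values.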
